A study of Rattus norvegicus with 24 samples.

Results

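Protein kinase A, the kinase that cyclic AMP switches on, was followed through 10 genes of its subunits and anchors. The genes were taken by name from 32883 in the deposited tables: the catalytic subunits Prkaca and Prkacb, the regulatory subunits Prkar1a, Prkar1b, Prkar2a and Prkar2b, and the A-kinase anchoring proteins Akap5, Akap9, Akap12 and Akap13. Each name matched 1 gene, and all 10 passed the filter on low values that left 13999 genes for testing. The set was chosen by name and on one measured fact, that the FPKM of Akap13 was higher after 24 h of JQ1, so that contrast without SKF is described for all 10 genes and tested for none. For Akap13 the same contrast with SKF is described only, too.

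RNA came from primary striatal neurons of neonatal rats at day 7 in culture, and every culture received 2 additions, with DMSO in place of an agent that was left out. SKF is an agonist of the D1 dopamine receptor, and JQ1 and iBD2 inhibit bromodomains, protein folds that dock on acetylated lysine. JQ1 acts on the BET family of bromodomain proteins. Experiment 1 compared DMSO, SKF, JQ1 and SKF with JQ1 for 60 min, experiment 2 the same with iBD2 for 60 min, and experiment 3 the same as experiment 1 for 24 h. Each of the 12 groups had 2 libraries, apart from SKF with iBD2, of which 1 was analysed here. The labels give no doses, no sex or strain, and no statement that the libraries of a group were separate cultures, so every p-value rests on library-to-library spread that may be technical. The cultures are mixed, and in bulk RNA fewer cells of a type and less RNA per cell cannot be told apart.

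At rest, 2 catalytic subunits are held inactive by a dimer of regulatory subunits. The D1 receptor raises cyclic AMP through the G protein subunit encoded by Gnal and adenylyl cyclase 5, cyclic AMP binds the regulatory subunits, and the catalytic subunits are freed to phosphorylate targets such as DARPP-32 in striatal projection neurons and CREB in the nucleus. Regulatory subunits come in type I (Prkar1a, found in most tissues, and Prkar1b, rich in brain) and type II (Prkar2a, widespread, and Prkar2b, rich in brain and fat). Anchoring proteins hold mainly type II holoenzymes beside their targets: Akap5 at the postsynaptic membrane with calcineurin and protein kinase C, Akap9 at the centrosome and Golgi, Akap12 (gravin) at the plasma membrane with receptors, and Akap13 (AKAP-Lbc) with RhoA, for which it is also an exchange factor.

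Promoter sequences are shown for 2 genes that were higher and 2 that were lower after 24 h of JQ1. They are the 250 bases before the RefSeq start on build GRCr8, all on the plus strand: Akap13 at chr1:138723900-138724149, Prkar1a at chr10:95120287-95120536, Prkar1b (the first of its 2 starts in the table) at chr12:20625674-20625923 and Akap12 at chr1:43135265-43135514. Capitals mark 3 motifs, each on either strand. The GC box, which Sp-family factors bind, was spelled GGGCGG. The CCAAT box, which the NF-Y complex binds, was spelled as its name. The E-box, bound by factors of the Myc and USF kind, was spelled CACGTG.
Akap13: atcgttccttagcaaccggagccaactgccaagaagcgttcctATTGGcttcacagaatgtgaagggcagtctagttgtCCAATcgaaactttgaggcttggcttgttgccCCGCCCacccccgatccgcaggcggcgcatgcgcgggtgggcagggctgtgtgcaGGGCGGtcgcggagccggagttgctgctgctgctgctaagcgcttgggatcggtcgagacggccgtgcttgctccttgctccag
Prkar1a: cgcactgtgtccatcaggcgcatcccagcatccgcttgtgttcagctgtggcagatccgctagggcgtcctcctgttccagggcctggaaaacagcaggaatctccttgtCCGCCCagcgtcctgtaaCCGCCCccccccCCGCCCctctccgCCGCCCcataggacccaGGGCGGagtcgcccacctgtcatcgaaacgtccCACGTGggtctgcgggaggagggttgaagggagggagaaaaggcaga
Prkar1b: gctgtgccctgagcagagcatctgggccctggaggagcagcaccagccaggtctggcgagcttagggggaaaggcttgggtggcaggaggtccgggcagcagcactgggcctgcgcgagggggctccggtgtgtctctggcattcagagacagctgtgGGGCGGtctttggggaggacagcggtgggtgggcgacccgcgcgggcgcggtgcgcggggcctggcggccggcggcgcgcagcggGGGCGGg
Akap12: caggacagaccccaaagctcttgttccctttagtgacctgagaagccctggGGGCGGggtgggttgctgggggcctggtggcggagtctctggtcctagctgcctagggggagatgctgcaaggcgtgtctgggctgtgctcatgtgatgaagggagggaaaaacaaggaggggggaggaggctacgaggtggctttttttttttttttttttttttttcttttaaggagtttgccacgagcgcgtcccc

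The table held 10 such windows for 9 of the 10 genes, Prkar2a having no entry. The GC box lay in 9 of the 10 windows, against 30.5% of all 33469 windows in the table, and the windows ran from 48% to 80.8% G and C, against a median of 51.2% over all. Prkar1a had 5 GC boxes and Prkar1b and Akap13 had 2 each. The CCAAT box lay in 3 windows (34.0% of all), among them that of Akap13 at both −207 and −171 from the start, and the E-box in 1, that of Prkar1a at −47 (5.59% of all). The cyclic AMP response element was searched as TGACGTCA, which holds the shorter core TGACG. The 8-letter element was in none of the 10 windows (1.59% of all) and the core in 1, that of Prkaca (18.2% of all), while the TATA box TATAAA was in none (12.9% of all). These letters were chosen with the genes known, and a match is a description of the sequence, not a binding site.

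Libraries held 4.36 to 14.9 gigabases of aligned sequence. Of the neuron markers 8 of 8 averaged at least 1 FPKM, as did 12 of 12 markers of striatal projection neurons and 10 of 10 of astrocytes. So did 9 of 12 microglial, 6 of 10 oligodendrocyte and 5 of 10 fibroblast and meningeal markers present, and 0 of 7 endothelial ones. No marker was at 0 in every library. Experiment 2 stood apart: its summed astrocyte markers came to 159 to 180 FPKM, against 397 to 528 in experiment 1 and 406 to 587 in experiment 3.

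Levels are FPKM (fragments per kilobase of annotated transcript, relative to library depth), scaled by a size factor per library, and were highest for 5 of the 6 subunits, with Prkar2a below the anchor Akap5, and lowest for Akap13. In the 6 DMSO libraries Prkacb ranged from 118 to 129 FPKM (median 123), Prkar2b from 93.5 to 112 (median 99.8), Prkar1b from 73.1 to 102 (median 78.0), Prkaca from 61.4 to 71.2 (median 65.8) and Prkar1a from 55.3 to 74.1 (median 63.0). Akap5 ranged from 30.2 to 37.7 FPKM (median 32.9), Prkar2a from 13.5 to 22.5 (median 15.7), Akap9 from 13.8 to 15.3 (median 14.7), Akap12 from 4.09 to 5.95 (median 5.38) and Akap13 from 0.536 to 1.20 (median 1.08). Of neighbours in that order, Prkar2b and Prkar1b, Prkaca and Prkar1a, and Prkar2a and Akap9 overlapped over these libraries, each with the first above the second in 4 of 6. The mean of Prkacb over all libraries stood above 97.2% of the genes tested and that of Akap13 above 19.9%. AABR07063824.1, a gene at a mean of 0.632 FPKM on the same strand, overlaps Prkar2b, so their reads may be split between them.

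Vehicle levels differed between experiments for several of the 10 genes. Akap13 was at 0.648 and 0.536 FPKM in the DMSO libraries of experiment 2, below the 1.13 and 1.20 of experiment 1 and the 1.11 and 1.05 of experiment 3. Akap12 was also lower there, at 4.09 and 4.48 FPKM against 5.29 to 5.95 in the other 4 DMSO libraries. Prkar2a was higher there, at 22.5 and 21.5 FPKM against 13.5 to 17.0, and so was Prkar1b, at 102 and 99.7 against 73.1 to 79.5. Prkar1a was higher there too, at 71.5 to 74.1 FPKM against 55.3 to 65.8. So were Akap5 (37.6 to 37.7 against 30.2 to 34.2) and Prkaca (68.7 to 71.2 against 61.4 to 67.5). Prkar2b was lower, at 93.5 to 97.8 against 98.5 to 112. None of these ranges overlapped, while those of Prkacb and Akap9 did. The share of all genes apart in this way was not counted, so nothing particular to these genes is read from it. Fibroblast and meningeal marker sums were also lower in experiment 2 (111 to 126 FPKM, against 196 to 232 in experiment 1), as were the microglial sums (49.8 to 64.3 against 86.7 to 123), the oligodendrocyte sums (35.8 to 38.3 against 54.3 to 62.2) and the astrocyte sums given above. Neuron sums were lower too, at 1835 to 1924 FPKM against 1964 to 2164 in experiment 1. Striatal projection neuron sums were 793 to 864 FPKM against 698 to 797 in experiment 1, ranges that just overlap. The fibroblast and meningeal sums were mostly Vim and Thy1, at means of 145 and 38.5 FPKM over all libraries, with Tagln next at 8.06. Col1a1 and Col3a1 averaged 0.849 and 0.712 FPKM, so these sums mainly follow Vim and Thy1, not the collagens. The part of any of these cell types in the levels was not tested. Comparisons are therefore made within an experiment or between effects, each against its own controls.

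The main change in the protein kinase A genes came with 24 h of JQ1. Akap13 was several times higher, the regulatory subunits Prkar1a and Prkar2a were higher by 25.6 to 27.0% in mean FPKM with SKF present, and Akap12, Prkar1b and Prkacb were lower. In the limma fit over all libraries no gene of the 10 passed in any comparison at 60 min, or with SKF alone at 24 h. At most 6.57% of all genes were called in any of those comparisons. With SKF present in both groups, JQ1 for 24 h raised 2 and lowered 3 of the 9 genes tested, while 55.8% of all genes were called in that comparison (24.7% higher, 31.1% lower), so a share of 5 in 9 is close to the background. The median log2 difference of the 9 tested genes was −0.09, against −0.03 over all genes. Without SKF, 8 of the 10 genes had JQ1 and DMSO libraries that did not overlap, in either direction, against 76.5% of all genes, and 56% of all genes were called there. The choice of genes used that contrast, and nothing is read from that count.

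**Figure D1:**
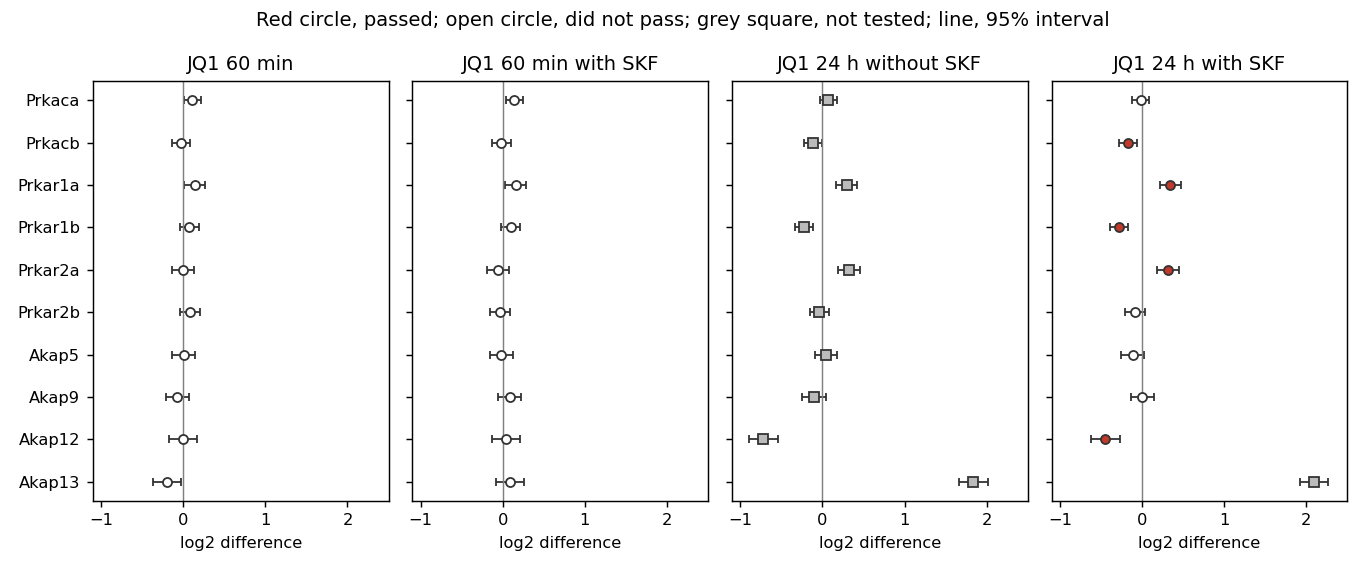
Log2 difference with its 95% interval (line) for each of the 10 genes in the 4 comparisons of JQ1 with its control, 60 min at left and 24 h at right; red circles passed the test at an adjusted p under 0.05, open circles did not, and grey squares were not tested. At 60 min every open circle lies between −0.20 and 0.16, and at 24 h Akap13 lies at 1.84 and 2.10.

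Marker sums moved with 24 h of JQ1 as well. In the presence of SKF all 12 microglial markers fell, and their sum went from 57.9 and 41.8 FPKM to 4.03 and 2.39. Fibroblast and meningeal markers summed to 202 to 210 FPKM with SKF and 289 to 389 with SKF and JQ1, with 2 of 7 tested markers higher and 1 lower. Astrocyte sums were 439 to 463 and 448 to 587 FPKM (4 of 10 higher, 2 lower). Neuron sums were 1975 to 1982 and 1609 to 1785 FPKM (1 of 8 higher, 4 lower), and striatal projection neuron sums were 698 to 723 and 594 to 697 (2 of 12 higher, 5 lower). Oligodendrocyte sums were 51.9 to 52.2 and 61.9 to 77.0 FPKM (3 of 9 higher, 2 lower), and endothelial sums were at most 0.840 FPKM in any library. In the pair without SKF the microglial sum was 113 and 94.8 FPKM with DMSO and was at most 19.7 with JQ1, and again 12 of 12 markers were called lower. The other lists with tested markers had more called lower than higher there: 4 against 1 of 10 for astrocytes, 2 against 1 of 7 for fibroblasts and meninges, 4 against 3 of 9 for oligodendrocytes, 4 against 1 of 8 for neurons and 3 against 2 of 12 for striatal projection neurons. The summed fibroblast and meningeal level was nevertheless 209 to 225 FPKM with DMSO and 247 to 304 with JQ1, and the astrocyte sums overlapped, at 459 to 557 and 406 to 472. Vim and Thy1 make up most of the fibroblast and meningeal sums in both pairs, so these sums do not track that list as a whole. The part of these cell types in the differences at 24 h was not tested.

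Akap13 (ENSRNOG00000010964, Rnor_6.0 chr1:137014272-137315272, plus strand) has 1 annotated transcript, of 39 exons and 12229 nucleotides. In experiment 3 it was at 1.11 and 1.05 FPKM with DMSO and at 5.08 and 5.21 FPKM with JQ1. With SKF alone it was at 0.966 and 0.902 FPKM, and with SKF and JQ1 at 5.57 and 5.69 FPKM. All 4 libraries with 24 h of JQ1 were above all 19 others, whose highest value was 1.20. The ratio of mean FPKM was 4.77 without SKF and 6.03 with it. On the log2(FPKM + 0.5) scale, which understates the change of a gene this low, the differences were 1.84 ± 0.08 (SE) and 2.10 ± 0.08. Both are descriptions, since the gene was chosen for this difference.

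**Figure D2:**
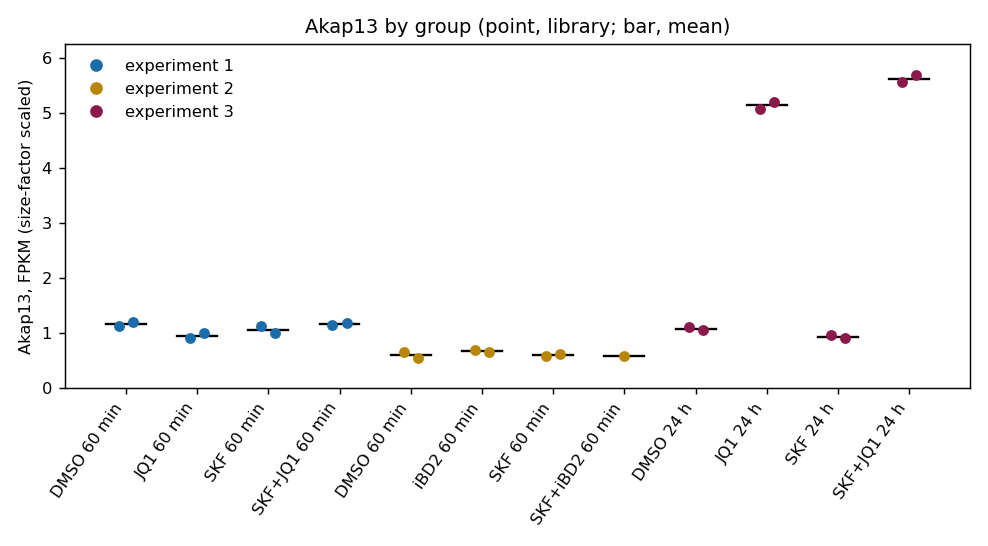
Akap13 in scaled FPKM (vertical axis, from 0) in each of the 23 libraries (points) by group, with the group mean (bar); colours are the 3 experiments. The 4 libraries with JQ1 for 24 h lie between 5.08 and 5.69 FPKM and the other 19 between 0.536 and 1.20.

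At 60 min Akap13 was at 1.13 and 1.20 FPKM with DMSO, 0.910 and 0.989 with JQ1, 1.12 and 1.004 with SKF, and 1.14 and 1.17 with SKF and JQ1. The JQ1 libraries were the lowest of the 8 and did not overlap those with DMSO. The log2 difference for JQ1 alone was −0.20 (95% interval −0.37 to −0.03) and did not pass the limma test (adjusted p = 0.251). Limma's voom fit on reads estimated from coverage gave −0.28 with an adjusted p of 0.0348, so this call depends on the fit. In the presence of SKF the difference was 0.09 (−0.09 to 0.26, adjusted p = 0.685).

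The regulatory subunits split within each type after 24 h of JQ1. Prkar1a (ENSRNOG00000049876, chr10:97940705-97957336, plus strand) was at 55.6 and 58.7 FPKM with SKF and at 72.5 and 72.6 with SKF and JQ1, groups that did not overlap. It rose by 0.34 ± 0.06 on the log2 scale (adjusted p = 0.000129), or 27.0% on the FPKM scale. Without SKF it was at 60.2 and 55.3 FPKM with DMSO and at 70.3 and 71.7 with JQ1, a difference of 0.30 ± 0.06. Prkar1b (ENSRNOG00000028733, chr12:17614632-17712373, plus strand), the other type I subunit, was at 77.4 and 78.6 FPKM with SKF and at 60.4 and 67.8 with SKF and JQ1. It fell by 0.28 ± 0.05 (adjusted p = 0.000221). Its libraries without SKF were at 76.6 and 75.6 FPKM with DMSO and 64.1 and 66.2 with JQ1, so all 4 libraries with JQ1 for 24 h lay below the other 4 of that experiment.

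Prkar2a (ENSRNOG00000020284, chr8:117486083-117546370, plus strand), the widespread type II subunit, was at 14.9 FPKM in both SKF libraries and at 18.5 and 18.9 with SKF and JQ1. It rose by 0.32 ± 0.06 (adjusted p = 0.000384), or 25.6% in FPKM, and was at 14.5 and 13.5 FPKM with DMSO and 17.6 and 17.7 with JQ1 alone. Its transcript ENSRNOT00000088705 held 93.9 to 97.5% of the gene and rose by 0.33 ± 0.06 (adjusted p = 0.000813 over transcripts). Prkar2b (ENSRNOG00000009079, chr6:51265515-51356383, minus strand) was at 107 and 106 FPKM with SKF and at 97.0 and 103 with SKF and JQ1. Those libraries did not overlap, but the difference of −0.09 ± 0.06 did not pass (adjusted p = 0.190). It passed on FPKM as deposited, without size factors, at −0.13 (adjusted p = 0.0263). Without SKF, Prkar2b was at 98.5 and 112 FPKM with DMSO, a range that holds both JQ1 libraries.

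**Figure D3:**
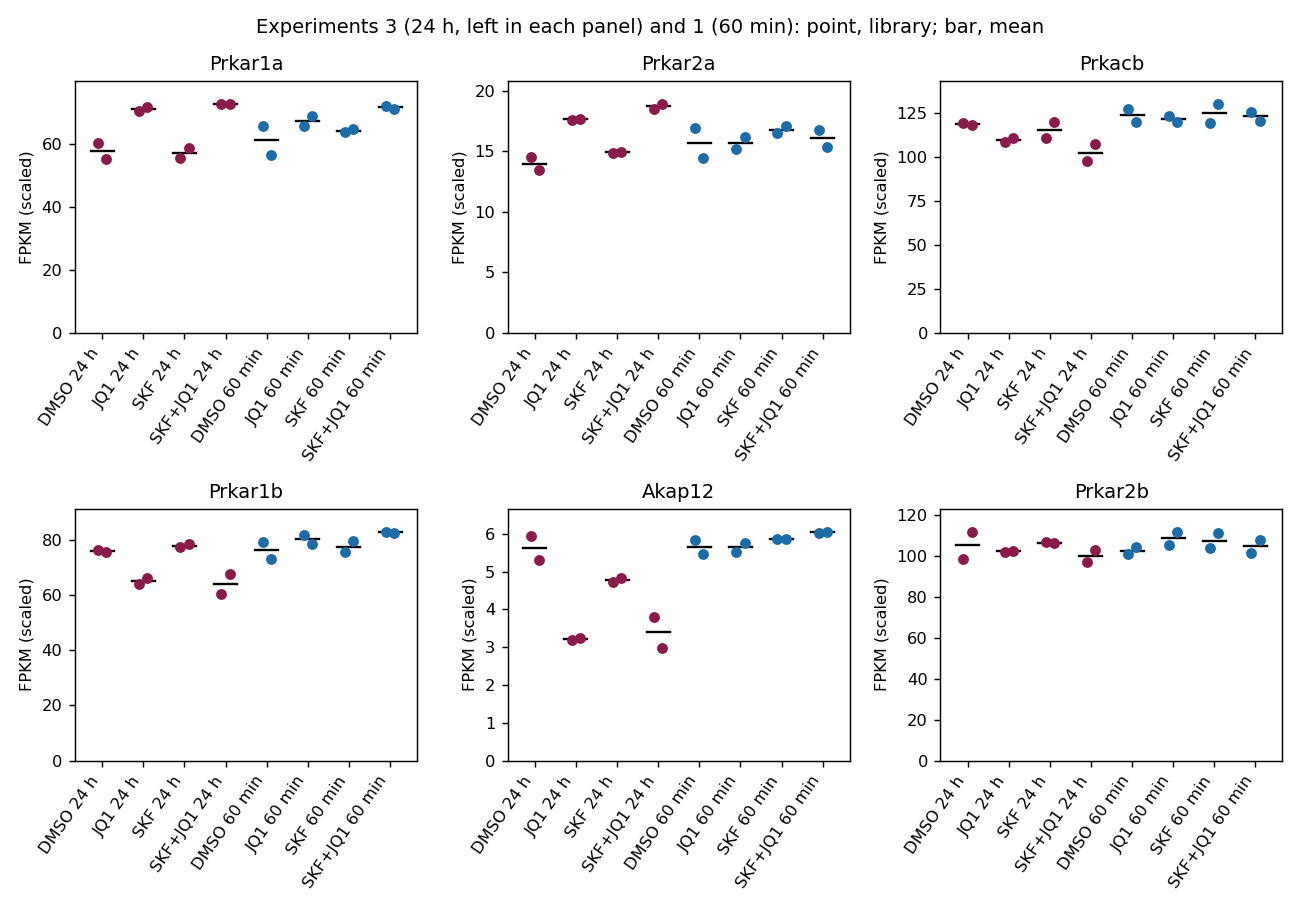
Scaled FPKM (vertical axes, from 0) of 4 regulatory subunits, Prkacb and Akap12 in each library of experiments 3 (24 h) and 1 (60 min), with group means as bars. In the 4 libraries with JQ1 for 24 h Prkar1a and Prkar2a lie above, and Prkar1b and Akap12 below, the other 4 of experiment 3; Prkacb overlaps.

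Because the subunits moved in opposite directions, their summed level changed little while the makeup shifted. Prkar1a took 21.6 to 24.1% of the summed regulatory FPKM in the 4 libraries of experiment 3 without JQ1 and 27.6 to 29.2% in the 4 with it. The share of Prkar1b was 29.5 to 30.7% without JQ1 and 24.3 to 25.8% with it, and that of Prkar2a 5.26 to 5.85% and 6.85 to 7.45%. Prkar1b was thus above Prkar1a in all 4 libraries without JQ1 and below it in all 4 with JQ1. Type I subunits together held 51.1 to 54.7% without JQ1 and 52.9 to 53.5% with it, ranges that overlap. The summed regulatory level was 251 to 260 FPKM without JQ1 and 244 to 254 FPKM with it. These sums are of FPKM as deposited, without size factors, so they cannot be set beside the scaled levels given elsewhere. These shares are descriptions of RNA per annotated length, not of protein.

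**Figure D4:**
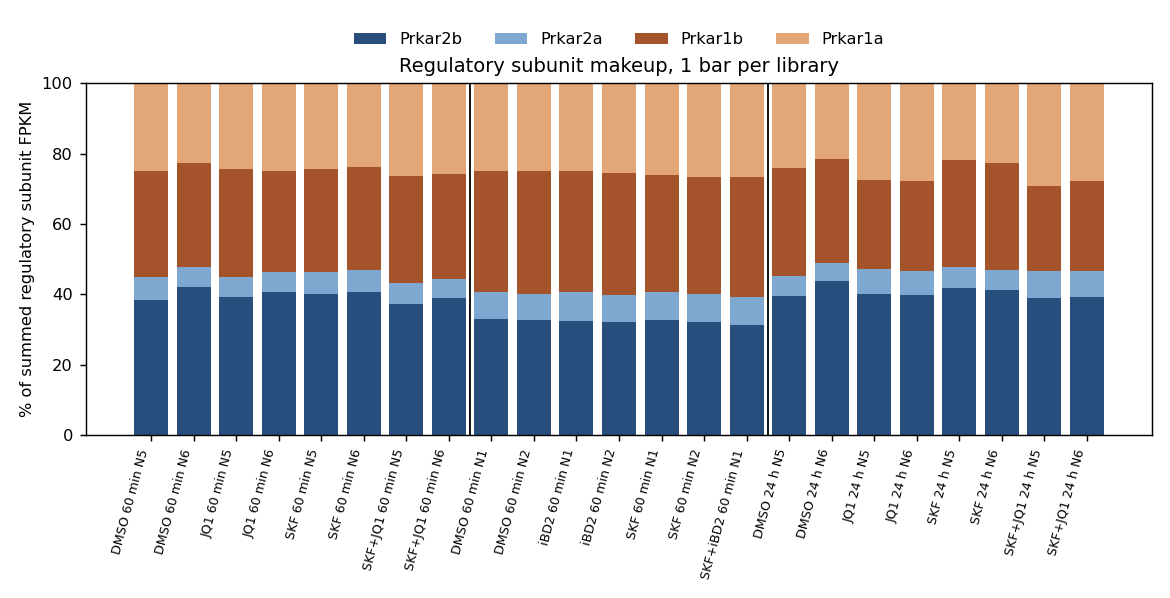
Share of each regulatory subunit in the summed FPKM of the 4 (vertical axis, percent), 1 bar per library; vertical lines separate experiments 1, 2 and 3. In experiment 3 the share of Prkar1a is 21.6 to 24.1% without JQ1 and 27.6 to 29.2% with it.

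Of the catalytic subunits, Prkacb passed the test at 24 h and Prkaca did not. Prkacb (ENSRNOG00000004978, chr2:252605307-252691886, minus strand) was at 111 and 120 FPKM with SKF and at 97.8 and 107 with SKF and JQ1. It fell by 0.17 ± 0.05 (adjusted p = 0.012). This call was lost without SKF replicate 6 (−0.11, adjusted p = 0.155) and without SKF and JQ1 replicate 5 (−0.10, adjusted p = 0.163). Without SKF it was at 119 and 118 FPKM with DMSO and at 108 and 111 with JQ1. Each pair of groups was apart, but the lower SKF library lay within the range of the 4 libraries with JQ1. Prkaca (ENSRNOG00000005257, chr19:25095089-25118860, plus strand) was at 65.4 and 63.6 FPKM with SKF and at 61.5 and 65.9 with SKF and JQ1, with a difference of −0.02 (−0.12 to 0.09, adjusted p = 0.773). Prkacb made up 62.9 to 65.3% of the catalytic FPKM without JQ1 and 61.4 to 61.9% with it. Regulatory FPKM per catalytic FPKM was 1.37 to 1.45 without JQ1 and 1.44 to 1.56 with it in experiment 3, ranges that just overlap.

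Among the anchors, Akap12 went the opposite way to Akap13. Akap12 (ENSRNOG00000019549, chr1:40816107-40906581, plus strand) was at 4.71 and 4.84 FPKM with SKF and at 3.80 and 2.98 with SKF and JQ1. It fell by 0.45 ± 0.08 (adjusted p = 0.000225). Leaving out 1 library at a time kept the call, with differences from −0.60 to −0.29. Without SKF it was at 5.95 and 5.29 FPKM with DMSO and at 3.19 and 3.24 with JQ1, so the 4 JQ1 libraries lay below the other 4. Its transcript ENSRNOT00000060767, of 4 exons, held 71.4 to 100% of the gene over all libraries and fell by 0.48 ± 0.14 (adjusted p = 0.0128). The shorter transcript ENSRNOT00000083702, which starts further downstream, held 0 to 28.6% and its difference was 0.12 (−0.78 to 1.03, adjusted p = 0.852). In all, 5 transcripts of the 9 genes other than Akap13 were called in this comparison, against 40.5% of the 17730 transcripts tested. They were the main transcripts of Akap12 and Prkar2a just named and the single transcripts of Prkar1a, Prkar1b and Prkacb. Tested and not called were those of Prkaca, Prkar2b, Akap5 and Akap9 and the lesser ones of Akap12 and Prkar2a. The share called is thus close to the background.

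Akap5 (ENSRNOG00000006410, chr6:99356509-99361909, plus strand), the synaptic anchor, was at 30.0 and 32.2 FPKM with SKF and at 27.4 and 30.1 with SKF and JQ1, and these overlapped (−0.11, −0.25 to 0.02, adjusted p = 0.150). Akap9 (ENSRNOG00000026319, chr4:27195346-27331582, minus strand) was at 14.1 and 15.4 FPKM with SKF and 14.3 and 15.1 with SKF and JQ1, with a difference of 0.00 (−0.14 to 0.14, adjusted p = 0.992). Its transcript ENSRNOT00000090751, of 51 exons, held 80.6 to 100% of the gene, and ENSRNOT00000010118 held 0 to 19.4%. Neither transcript was called in that comparison.

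SKF, which drives the pathway these genes encode, moved none of them past the threshold. At 60 min 0 of 10 genes were called in experiment 1, in experiment 2 and over both, against 1.69%, 2.36% and 3.94% of all genes. At shares this low a count of 0 in 10 is close to the background, here and in the other comparisons with 0 called. At an unadjusted p under 0.05 there were 0, 1 and 2 of the 10. Over both experiments the differences ran from −0.06 to 0.11. The largest were those of Prkar2a at 0.11 (0.02 to 0.21, adjusted p = 0.234) and Prkar1a at 0.10 (0.01 to 0.19, adjusted p = 0.272). With DMSO replicate 5 of experiment 1 left out both passed, Prkar1a at 0.16 (adjusted p = 0.0259) and Prkar2a at 0.17 (adjusted p = 0.0231). With DMSO replicate 6 left out instead they were lower, at 0.05 (adjusted p = 0.619) and 0.06 (adjusted p = 0.570). In that group Prkar1a was at 65.8 and 56.5 FPKM and Prkar2a at 17.0 and 14.4, and the SKF libraries (63.6 and 64.6 FPKM for Prkar1a, 16.5 and 17.1 for Prkar2a) overlapped those ranges. In experiment 2 the groups did not overlap: Prkar1a was at 74.1 and 71.5 FPKM with DMSO and 78.7 and 80.7 with SKF, and Prkar2a at 22.5 and 21.5 with DMSO and 23.9 and 24.2 with SKF. The test in experiment 2 alone gave 0.13 for both, with adjusted p of 0.409 for Prkar1a and 0.469 for Prkar2a. The groups of Prkacb (higher with SKF) and Akap5 (lower) did not overlap there either. The share of all genes apart was not counted, so nothing is read from groups being apart in experiment 2.

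After 24 h of SKF again 0 of 10 genes were called, against 1.49% of all, with 1 at an unadjusted p under 0.05. That gene was Akap12, at 5.95 and 5.29 FPKM with DMSO and 4.71 and 4.84 with SKF, a difference of −0.21 (−0.39 to −0.04, adjusted p = 0.345). Akap13 was lower in both SKF libraries than in either DMSO library (−0.14, −0.31 to 0.03, adjusted p = 0.652). Akap12 was apart in the same direction, and Prkar1b and Prkar2a were apart in the other, higher with SKF. The share of all genes apart was not counted, so nothing is read from this. For the 6 subunits the differences ran from −0.04 to 0.09. The SKF effect at 24 h did not differ from that at 60 min by the test for any of the 10 (1.36% of all genes were called; 1 of 10 had an unadjusted p under 0.05, Akap12 at −0.26).

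JQ1 for 60 min called 0 of 10 genes without SKF and 0 of 10 with it, against 4.48% and 6.57% of all genes. At an unadjusted p under 0.05 there were 3 and 2. Prkar1a and Prkaca were in both counts. Prkar1a was at 63.6 and 64.6 FPKM with SKF and 72.0 and 71.1 with SKF and JQ1 (0.16, 0.03 to 0.29, adjusted p = 0.154). Prkaca was at 63.3 and 66.7 FPKM with SKF and 73.4 and 69.8 with SKF and JQ1 (0.14, 0.03 to 0.24, adjusted p = 0.125). In both genes the groups did not overlap, though neither passed over all genes. The groups of Prkar1b, Akap9, Akap12 and Akap13 did not overlap in this comparison either. The share of all genes apart in this way was not counted, so nothing is read from groups being apart here. For JQ1 alone Prkar1a was at 65.8 and 56.5 FPKM with DMSO and 65.7 and 68.8 with JQ1, which overlapped (0.14, 0.01 to 0.27, adjusted p = 0.284). That value rested on the DMSO library left out: it was 0.25 (adjusted p = 0.0184) without DMSO replicate 5 and 0.03 (adjusted p = 0.928) without DMSO replicate 6. The SKF effect with JQ1 minus that without it called 0 of the 10 and 0.00714% of all genes, with 1 of the 10 at an unadjusted p under 0.05, Akap13 at 0.28 (0.04 to 0.53, adjusted p near 1).

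With iBD2 for 60 min 0 of 10 genes were called without SKF and 0 of 10 with it, against 0.164% and 0.0214% of all genes, and 1 and 0 had an unadjusted p under 0.05. The 1 was Akap9, at 13.8 and 15.1 FPKM with DMSO and 16.6 and 15.4 with iBD2 (0.15, 0.00 to 0.29, adjusted p = 0.749). Akap13 was at 0.648 and 0.536 FPKM with DMSO and 0.681 and 0.649 with iBD2 (0.10, −0.08 to 0.27, adjusted p = 0.932). The comparison with SKF rests on 1 library of SKF with iBD2, whose own spread is unknown and is taken to equal that of the rest. The JQ1 effect minus the iBD2 effect was compared for the 10 genes as 1 pair of inhibitors, and 0 were called (0.95% of all genes), with 2 at an unadjusted p under 0.05. These were Akap13 at −0.29 (−0.54 to −0.05, adjusted p = 0.422) and Akap9 at −0.22 (−0.42 to −0.02, adjusted p = 0.525). For the 6 subunits the difference between inhibitors ran from −0.09 to 0.10, which does not show that the inhibitors act alike. Doses are not in the labels, and inhibitor and experiment cannot be told apart.

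The JQ1 effect in the presence of SKF differed between 24 h and 60 min for 3 of the 9 genes tested, against 36.7% of all genes. For Prkar1b the log2 effect was 0.09 at 60 min and −0.28 at 24 h, a difference of −0.38 ± 0.07 (adjusted p = 0.000824). For Prkar2a it was −0.06 at 60 min and 0.32 at 24 h, a difference of 0.38 ± 0.09 (adjusted p = 0.00314). For Akap12, at 0.04 and −0.45, the difference was −0.48 ± 0.12 (adjusted p = 0.00391). Prkar1a, at 0.16 at 60 min and 0.34 at 24 h, did not pass (0.18 ± 0.09, adjusted p = 0.1004). For Akap13 the effects were 0.09 and 2.10. Without SKF and JQ1 replicate 6 of the 24 h experiment, 5 genes passed, with Prkaca (−0.21) and Prkacb (−0.22) added. Of the transcripts tested for these 9 genes, those of Prkar1b and Prkar2a were called in this comparison, against 23.9% of all transcripts. The marker sums given for 24 h moved in the same libraries. Time and experiment cannot be told apart in this comparison.

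The genes most like Akap13 were sought by Pearson correlation of log2 values over the 23 libraries, each centred on the mean of its experiment, among 12145 genes with a mean of at least 1 FPKM. Among the 5 closest were Stk38l (r = 0.983), Stim2 (0.981), AABR07037451.2 (0.981) and Nomo1 (0.980). In all, 502 genes (4.13%) reached an r of 0.9, and 1040 reached −0.9. Because the 4 libraries with JQ1 for 24 h lie far above the others for Akap13, an r of this kind mainly follows those 4. The closest of the other 9 genes was Prkar2a (r = 0.824, rank 1176). Prkar1a and Prkar2a were each other's closest among the 10 (r = 0.846, rank 365 for Prkar1a and 119 for Prkar2a). So were Prkar1b and Akap12 (r = 0.713), though only at rank 1802 for Prkar1b and 2264 for Akap12. Akap9 reached 0.217 at most, with Akap12 (rank 1938). How far these r follow the libraries with JQ1 for 24 h was not tested. Prkacb came closest to Prkar1b (r = 0.706, rank 574), Prkaca to Prkar1a (r = 0.564, rank 375), Akap5 to Prkacb (r = 0.695, rank 50) and Prkar2b to Prkar1b (r = 0.417, rank 1600).

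Other genes of the pathway were taken from lists, and in each sentence that follows the comparison is SKF and JQ1 against SKF at 24 h unless another is named. Of 22 other anchors tested, 1 rose and 5 fell (median 0.02, against −0.03 over all genes). Akap1, the mitochondrial anchor, rose from 13.7 and 13.9 FPKM to 16.0 and 16.6 (0.23 ± 0.05, adjusted p = 0.000537). Akap2 fell from 13.8 and 13.3 FPKM to 8.64 and 9.58 (−0.55 ± 0.06, adjusted p = 8.59e-07). Cbfa2t3 fell by 0.42 and Sphkap, an anchor of type I protein kinase A, by 0.46. Of 7 inhibitors, relatives and other cyclic AMP effectors, 3 fell and none rose (median −0.20). Rapgef4 (Epac2), a cyclic AMP sensor that acts without protein kinase A, fell from 16.8 and 17.6 FPKM to 9.18 and 11.5 (−0.71 ± 0.08). Rapgef3 (Epac1) fell from 1.09 and 0.779 FPKM to 0.219 and 0.158 (−1.05 ± 0.14), on a log2 scale that understates the change of a gene this low. Pkia, a peptide inhibitor of the catalytic subunits, fell by 0.20.

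Upstream, of 22 genes of G proteins and adenylyl cyclases, 4 rose and 10 fell (median −0.20). Gnai1, an inhibitory G protein subunit, rose from 39.0 and 39.8 FPKM to 52.3 and 54.0 (0.43 ± 0.05, adjusted p = 6.8e-07). The β subunit Gnb4 fell from 64.9 and 67.2 FPKM to 36.0 and 43.0 (−0.74 ± 0.06, adjusted p = 7.13e-08), adenylyl cyclase Adcy2 by 0.47, and Gng7, the γ subunit that pairs with the stimulatory protein in striatum, by 0.69. Gnal, named after its values were seen because it couples the D1 receptor, fell from 182 and 190 FPKM to 132 and 158 (−0.36 ± 0.08, adjusted p = 0.000624). With SKF alone for 24 h only Adcy7 of the 22 was called, from 0.666 and 0.524 FPKM with DMSO to 0.316 and 0.258 (−0.47 ± 0.10, adjusted p = 0.0244). At this level the log2 scale understates the change. In those libraries 9 of 12 microglial markers fell too, their sum going from 113 and 94.8 FPKM to 57.9 and 41.8, and their part in this was not tested.

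Akap13 is itself an exchange factor, and of 7 exchange factors of its family 1 rose and 3 fell. Arhgef2 fell from 12.5 and 13.2 FPKM to 6.86 and 6.42 (−0.90 ± 0.06, adjusted p = 2.97e-09), Arhgef28 by 0.66 and Arhgef1 by 0.37, while Arhgef11 rose by 0.17. Of 7 calcineurin genes, 3 fell: the regulators Rcan1 by 0.32 and Rcan2 by 0.15, and the catalytic subunit Ppp3ca by 0.22. These counts stand against 24.7% of all genes higher and 31.1% lower in that comparison.

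**Figure D5:**
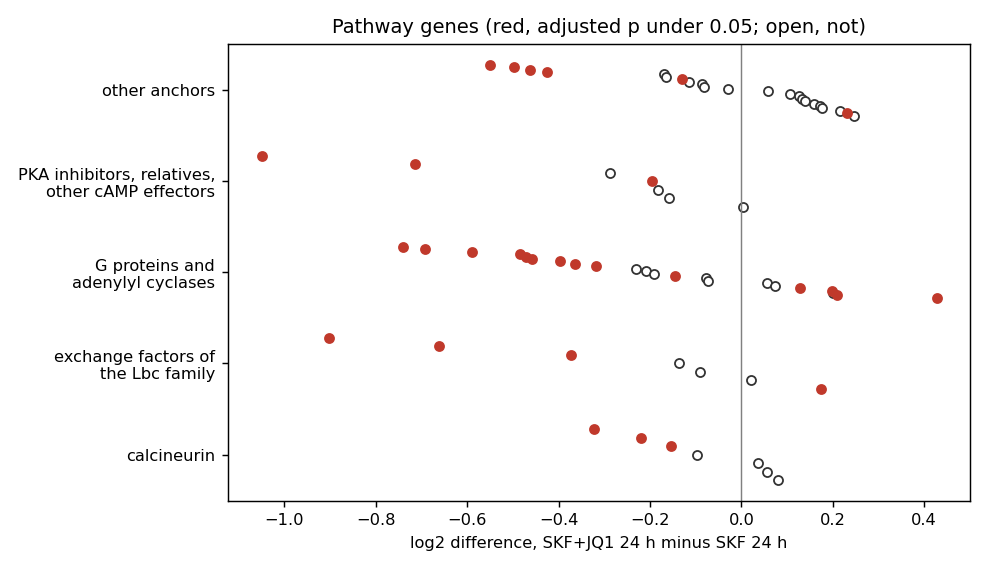
Log2 difference between SKF with JQ1 and SKF at 24 h (horizontal axis) for each tested gene (point) of 5 pathway lists; red points passed at an adjusted p under 0.05 and open points did not. The lowest point is Rapgef3 at −1.05, a change that this scale understates for so low a gene, and the highest is Gnai1 at 0.43.

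At 60 min, SKF over both experiments raised 1 of 22 other anchors and 1 of 7 calcineurin genes. It also raised 1 of 7 inhibitors, relatives and other cyclic AMP effectors. JQ1 added to SKF lowered the same numbers. None of the 22 genes of G proteins and adenylyl cyclases or of the 7 exchange factors was called in either comparison. Of all genes 3.94% and 6.57% were called, so nothing particular to the lists is read from these calls. Prkx, a kinase close in sequence to the catalytic subunits, rose with SKF over both experiments by 0.20 ± 0.05 (adjusted p = 0.0378), from 11.7 and 12.1 FPKM to 12.6 and 14.6 in experiment 1 and from 11.3 and 11.1 to 13.6 and 12.5 in experiment 2. With JQ1 added to SKF it was at 10.8 and 11.3 FPKM and fell by 0.29 ± 0.07 (adjusted p = 0.0234). The nuclear anchor Akap17a had the same pair of calls, 0.20 with SKF (adjusted p = 0.0363) and −0.27 with JQ1 added (adjusted p = 0.0306), and so did Rcan2, at 0.20 (adjusted p = 0.00174) and −0.35 (adjusted p = 0.000178). None of these list genes was called for SKF by JQ1, where 1 gene of 13999 passed. The pair of comparisons shares the SKF libraries of experiment 1.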

How the data were processed

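Per the labels, RNA was extracted with a Qiagen RNeasy Mini kit and made into stranded, rRNA-depleted NEBNext libraries. Per the submitters' processing notes, Trim Galore, FastQC, STAR, StringTie, DESeq2 and Rnor_6.0 were used, without versions; no source used here gives the strand setting of the counting. The authors deposited, per transcript, FPKM values and read coverage from StringTie, per the file headers. FPKM was summed over transcripts by gene ID and divided by a size factor per library (0.956 to 1.07), and coverage served to estimate depth and reads.

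Genes with at least 0.5 FPKM in at least 2 libraries and a transcript of at least 200 nucleotides were kept. limma 3.58.1 (R 4.3.3; trend and robust; 11 residual df) fitted 1 mean per group over all 23 libraries on log2(FPKM + 0.5), and each p-value was two-sided and adjusted by the Benjamini-Hochberg method over all 13999 genes (transcripts: all 17730), with calls at an adjusted p under 0.05. The script was tested on simulated data. The 10 genes and the lists were chosen with earlier results of these data known, so no list gives independent support. From each pathway list up to 4 called genes with the smallest p per comparison are named. Alternatives were other pseudocounts, no filter, FPKM as deposited, voom, each experiment alone, a replicate block and leaving out each library. Replicate 2 of SKF with iBD2 was not analysed here, and 1 gene and 1 pathway list are not reported here. Promoters are RefSeq sequence from build GRCr8, matched by symbol, and gene positions are those of the deposited tables on Rnor_6.0.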

Additional observations from a re-analysis of the deposited data

Results flagged for a closer look

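The JQ1 effect in the presence of SKF differed between the 24 h and the 60 min experiment by a direct test for 3 of the 9 genes tested, and each is given with its range when 1 library at a time is left out. For Akap12 the difference of the log2 effects was −0.48, with a range of −0.64 to −0.33. For Prkar1b it was −0.38, with a range of −0.46 to −0.30. For Prkar2a it was 0.38, with a range of 0.32 to 0.44. Each range kept its sign and its call. Time and experiment cannot be told apart here, and of all genes 36.7% were called in the same comparison. Groups of 2 libraries are too small to look for a single library far from the others.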

How the results depend on the processing

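Of the 13 comparisons tested, the number of genes called left its main value in 3 under alternatives other than leaving out a library. JQ1 for 60 min gave 1 in place of 0 with voom (Akap13, −0.28, adjusted p = 0.0348). JQ1 at 24 h with SKF gave 6 in place of 5 on FPKM as deposited (Prkar2b added), and its difference from 60 min gave 4 in place of 3 with voom (Prkar1a added, 0.21, adjusted p = 0.0469). Leaving out each library in turn gave 0 to 1 called genes for JQ1 at 60 min and 0 to 2 for SKF at 60 min over both experiments, the higher value in each case without DMSO replicate 5 of experiment 1. It gave 4 to 5 for JQ1 at 24 h with SKF, 3 to 5 for its difference from 60 min, and 0 in the other 9 comparisons. The value of Akap13 at 24 h moved with the pseudocount: with SKF it was 2.47 at 0.1 and 1.78 at 1, and 2.63 with voom, and without SKF it was 2.15, 1.56 and 2.30. Of 1680 values of single genes 128 changed sign, with no call in either fit. Same-numbered libraries did not deviate together in every pair (r from −0.33 to 0.47, with 6 of 15 over 0.1), so the numbers were not used to pair. With a replicate block 5 genes were called for JQ1 at 24 h with SKF, 3 for its difference from 60 min and 0 in every other comparison. Fits of each experiment alone give no value for differences between experiments or means of both. Over all genes, counts moved by more than 1.5 times from 236 to 155, 627 to 397 and 209 to 86 for SKF in experiment 1, JQ1 at 60 min and SKF at 24 h when fitted alone. For iBD2 the count of 23 became 9 on FPKM as deposited and 4 with voom, for iBD2 with SKF 3 became 199 without the filter, 11 when fitted alone and 5 with voom, and for SKF by JQ1 1 became 0 with the block, at a pseudocount of 0.1 or fitted alone and 7 without the filter. Leaving out 1 library also moved these counts by more than 1.5 times. The lowest were 329 for JQ1 at 60 min (without JQ1 replicate 5), 457 of 920 with SKF (without SKF and JQ1 replicate 5), 66 of 133 for JQ1 minus iBD2 (without JQ1 replicate 6), 204 of 331 for SKF in experiment 2 (without SKF replicate 2), and 5 for iBD2 (without iBD2 replicate 1 or 2). They were 61 for SKF at 24 h and 107 of 191 for its difference from 60 min (both without SKF replicate 6 at 24 h). For iBD2 with SKF the count rose to 5 without SKF replicate 1, and for SKF by JQ1 it ran from 0 to 3. With 2 libraries per group, small differences could not be detected.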
